A study of Drosophila melanogaster with 2 samples.

Results

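The negative regulators of Imd signalling examined here were dnr1, POSH, pirk, casp, CYLD, trbd and scny. They were chosen by gene symbol in the dm6 annotation, and all 7 symbols matched 1 of the 13945 protein-coding genes on the main chromosomes. The question was whether the NF-κB factor Rel (Relish), the last step of the pathway, was found at the genes whose products hold that pathway back. ChIP-seq with an anti-GFP antibody had been done on whole larvae at the wandering stage of the third instar, males and females pooled, of strain Rel-GFP, in 2 biological replicates numbered 2 and 3. Every library came from the same line, in which Rel carries GFP at its C terminus. The labels give no promoter or copy number for the tagged protein, no age beyond the stage, and no infection, so no second condition exists and no test between groups was made. Signal from all larval tissues is mixed, so binding in a few cells and weak binding in many cannot be told apart.

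In the Imd pathway, bacterial peptidoglycan binds the receptors PGRP-LC and PGRP-LE, which gather the adaptor Imd, Fadd and the caspase Dredd. Ubiquitin chains then bring in the kinase Tak1 and the IKK complex, and Dredd cleaves Relish so that its DNA-binding N-terminal part enters the nucleus. Because GFP sits at the C terminus, the antibody can recover only Relish that still has that end. The regulators act at successive steps. Dnr1 and POSH are RING-type ubiquitin ligases that lower Dredd and Tak1, CYLD, Trbd and Scny are deubiquitinases that remove the chains, Pirk binds PGRP-LC and Imd, and Caspar (gene casp) blocks the cleavage of Relish.

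The deposited files are peak lists. The authors gave 3 relaxed lists of 30000 regions each (replicate 2, replicate 3, and both sets of reads pooled), long enough to reach into background. From these the irreproducible discovery rate (IDR) procedure kept 2133 peaks, and these were the 2133 highest-ranked regions of the pooled list. A summit is the position of a region's maximum, and a rank is the place of a region in its own list by the authors' signal value, with 1 the strongest. No read counts come with the lists, so sequencing depth is unknown, and signal values were compared only within a list. Among the regulators, 1 of 7 (14.3%, exact 95% interval 0.361 to 57.9%, counting error only) had an IDR summit in the gene or up to 1000 bp upstream. The 7 genes were chosen by name and not drawn at random, so the interval does not carry over to other genes. Over all protein-coding genes the share was 10.6%, so the count for the regulators was near the background.

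When the IDR list was replaced by the strongest 2133 regions of a single replicate, 3 of 7 had a summit with either one, namely dnr1, POSH and scny. The scny summits were at different places in the 2 replicates. With regions shared by both replicates, 2 of 7 had one, dnr1 and POSH, against 6.94% of all protein-coding genes. By gene length, the share was 24.8% in the tenth of genes that holds dnr1 and 6.02% in the tenth that holds POSH. The matching shares of all protein-coding genes were 10.6% for replicate 3 alone and 10.8% for replicate 2 alone. Pooled regions with a q under 0.05 gave 2 of 7, dnr1 and pirk, against 17.5%. Under other rules for the IDR list, dnr1 remained the regulator with a summit: the stronger 1066 peaks (background 6.08%), summits inside the gene (6.48%), 5000 bp upstream (16%), within 500 bp of a start site (6.88%), the nearest start site (10%), and overlap by 1 bp (11%). A region of any rank was present at 4 of 7 in the pooled list (52.8% of all genes), 6 of 7 in replicate 2 (58.1%) and 5 of 7 in replicate 3 (56.2%).

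The gene with IDR summits was dnr1, and the order of the regulators depended on which list was read. By best rank in the pooled list, dnr1 (33) was followed by pirk (3525), scny (8731) and POSH (21458), and casp, CYLD and trbd had no region at all. In replicate 2 the order was dnr1 (61), POSH (485), scny (583), pirk (2401), CYLD (17881) and casp (22607). In replicate 3 it was dnr1 (12), POSH (919), scny (2021), pirk (6528) and casp (17700). Both replicates thus placed POSH and scny above pirk and inside the first 2133 regions, and the pooled list placed both below it. For scny these ranks belong to different regions, 583 in replicate 2 and 2021 in replicate 3, with summits more than 200 bp apart. Only trbd had no region in any of the 3 relaxed lists.

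**Figure D1:**
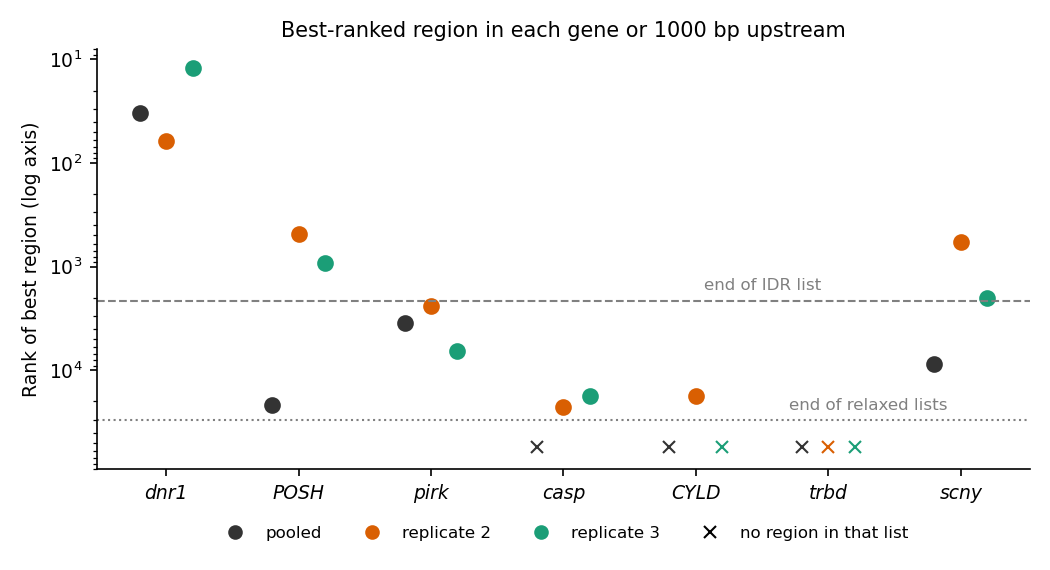
Rank of the best region in each gene or up to 1000 bp upstream (log axis, strongest at the top) in the pooled list and in replicates 2 and 3, with crosses for no region. dnr1 lies between 12 and 61 in all 3 lists, while POSH and scny lie above the end of the IDR list (2133) in both replicates and below it in the pooled list. The scny points of the 2 replicates are different regions of the gene.

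dnr1, which encodes a ligase with a FERM and a RING domain, had 3 IDR summits. The gene (FBgn0260866) lies at 2R:22563152-22592964 (dm6) on the minus strand, is 29813 bp long and has 1 annotated start site. The strongest summit (peak 2R:22569929-22570062, signal 318, −log10 q 3.0) lay in the first of 3 introns, 22965 bp downstream of the start. Its rank was 33 in the pooled list, 61 in replicate 2 (signal 151) and 12 in replicate 3 (signal 179). Both replicates therefore held it among their 100 strongest regions, with summits 10 bp apart. Few genes reached such ranks, since the share of protein-coding genes with a better best region was 0.251% in the pooled list, 0.445% in replicate 2 and 0.0645% in replicate 3. The pooled peak was 134 bp wide and that of replicate 2 had the usual 396 bp; 84 of the 100 strongest IDR peaks were likewise narrower than usual.

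The other IDR summits of dnr1 were at its promoter and 5254 bp into the first intron. The promoter summit (2R:22592796-22593191, signal 111) lay 30 bp upstream of the start and ranked 820 in the pooled list, 1010 in replicate 2 and 1178 in replicate 3. The intronic one (2R:22587512-22587907, signal 96.5) ranked 1139, 967 and 2256, so that in replicate 3 it fell just outside the first 2133. Another region, 23886 bp from the start (2R:22568880-22569275, signal 71.3), ranked 2201 in the pooled list, just below the last IDR peak (signal 72.5). Here the replicates differed, with rank 1255 in replicate 3 and 6241 in replicate 2. The annotated start nearest to the strongest summit was that of CG11362, a gene beyond the 3′ end of dnr1, 7692 bp away, and not that of dnr1.

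Counting regions of any rank, those of dnr1 fell into 2 groups on either side of a gap in the first intron, which is 25634 bp long. The pooled list held 13 regions at the gene, replicate 2 held 10 and replicate 3 held 13, where genes of the same length class had medians of 8, 7 and 7. Of the 13 pooled regions, 10 were in the first intron, 2 upstream and 1 in an exon of the 3′ UTR. Only 4 of the 13 had a q under 0.05. The rest ranked from 5203 to 25948, and the weakest of these cannot be told from background. No pooled region lay between 5947 and 18199 bp from the start. The gap ran from 5254 to 19291 bp in replicate 2 and from 5920 to 18184 bp in replicate 3. Regions at its far edge were weak, at rank 20175 in the pooled list, 27433 in replicate 2 and 10328 in replicate 3. The reference assembly has a diver transposable element of 6112 bp in this stretch (6386 to 12497 bp from the start). Its part in the gap was not tested, and the labels do not say whether the line carries it.

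**Figure D2:**
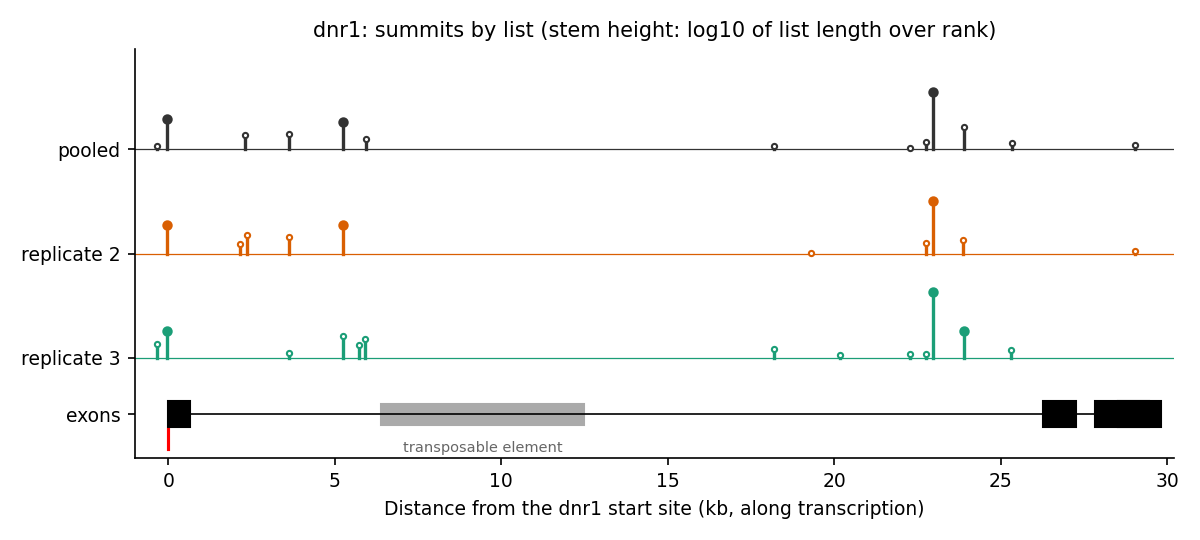
Summits at dnr1 against distance from its start site (kb), for the pooled list and replicates 2 and 3; stem height is the log10 of list length over rank, filled points are within the first 2133, black boxes are exons, the red tick is the start site and the grey box is the annotated transposable element. The tallest stem stands 22965 bp (pooled) into the gene in the same place in each list, and the stretch between 5947 and 18184 bp is empty in all 3.

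The share of genes with a summit differed with gene length. Genes were divided into 10 classes of nearly equal number by length. The share with an IDR summit ran from 1.86% in the shortest class to 35.5% in the longest, which holds dnr1. Having 3 or more IDR summits was rarer, at 1.11% of all protein-coding genes and 9.25% of the longest class. The remaining regulators are shorter, from 2029 bp (pirk) to 7270 bp (scny). The shares with an IDR summit in their classes were 5.33% for pirk, 8.96% for POSH, casp and CYLD, 13.3% for trbd and 20.7% for scny, so most genes of their length also had none.

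**Figure D3:**
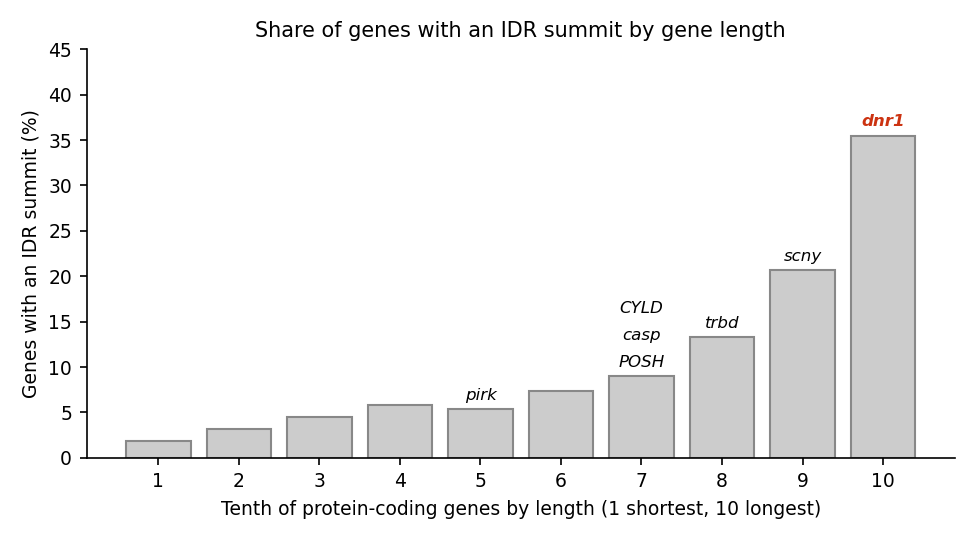
Percentage of protein-coding genes with an IDR summit in the gene or 1000 bp upstream, in 10 classes of gene length, with each regulator written above its class. The share runs from 1.86% to 35.5%, and dnr1 (red), the regulator with IDR summits, is in the class with the highest share.

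By rank in the pooled list and both replicates, the strongest summit of dnr1 was most like those of Btk, Dp1 and imd, over 3 lists that are not independent of each other. Btk encodes a Tec-family tyrosine kinase, Dp1 an RNA-binding protein with KH domains, and imd the adaptor of the pathway itself. The best summit of Btk ranked 30, 45 and 17 in the pooled list, replicate 2 and replicate 3. The peak shared by Dp1 and imd ranked 39, 74 and 18. Distances in log10 rank from dnr1 were 0.205 for Btk and 0.208 for both Dp1 and imd.

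POSH, a scaffold with SH3 domains and a RING domain that promotes the breakdown of Tak1, had no IDR summit, but both replicates had a strong region at its promoter. The gene (FBgn0040294) lies at 2R:17568732-17572322 on the plus strand, and its start is 276 bp from that of Ns2, a nucleostemin-family GTPase gene transcribed in the opposite direction. In replicate 2 the region (2R:17568465-17568860, signal 80.2, −log10 q 3.21) ranked 485 with its summit 69 bp upstream of the POSH start. In replicate 3 (2R:17568401-17568784, signal 50.6, −log10 q 2.57) it ranked 919 with the summit 139 bp from POSH and 137 bp from Ns2. Summits 70 bp apart thus lay between both starts, and they do not say which gene the signal belongs to. The pooled list had nothing there: its nearest summit was 891 bp from that of replicate 2, inside Ns2, at rank 21458 (−log10 q 0.25). The nearest IDR summit to POSH was 21031 bp away, 68 bp from the start of MESR4.

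Strong regions shared by both replicates were rarely absent from the pooled list. Among the first 2133 regions of replicate 2, 1250 had a summit within 200 bp of a first 2133 region of replicate 3, and 1223 of these (97.8%) had an IDR summit within 200 bp. Only 16 (1.28%) had no pooled region of any rank within 200 bp. Of 394 shared regions ranked at least as high as POSH in both replicates, 391 had an IDR summit, and the 3 without one were those at POSH, GstE13 and CG2698. By replicate 2 rank the POSH region came after those at the other 2 genes and ahead of the remaining 13 of the 16. Over all genes, 6.94% had a shared region in the gene or 1000 bp upstream and 0.201% had one without an IDR summit. Of the regulators, 2 had a shared region, dnr1 with 2 and POSH with 1. Why the POSH region is absent from the pooled list was not tested, because the reads behind the lists were not analysed here.

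**Figure D4:**
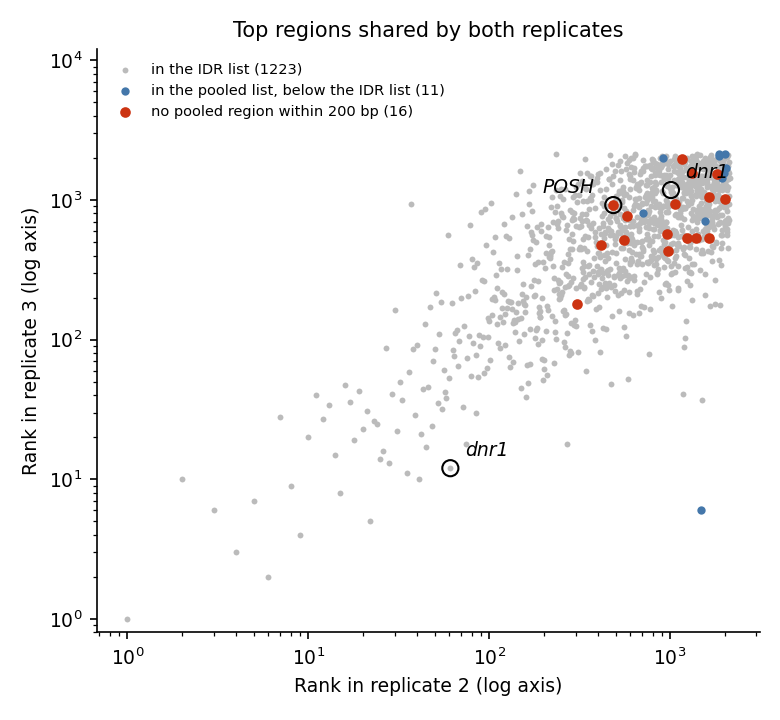
Rank in replicate 2 against rank in replicate 3 (both log axes) for the 1250 regions within the first 2133 of both lists, coloured by their place in the pooled data: grey for 1223 with an IDR summit within 200 bp, blue for those with a lower pooled region, red for 16 with none; regions at regulators are circled. POSH (485 and 919) is among the red points, and both dnr1 regions are grey.

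scny encodes a ubiquitin-specific protease, the fly counterpart of USP36, that takes ubiquitin chains off Imd, and it also lacked an IDR summit while each replicate ranked a region of it highly. The gene (FBgn0260936) lies at 3L:5769002-5776271 on the plus strand with 7 annotated transcripts and 4 start sites, the later 2 of which (positions 5771165 and 5771220) lie within the first intron of the longer transcripts. The window below is shown because both replicates had a summit in it, in the first intron of 3 transcripts, and because it holds a match to a kB string, the kind of sequence that NF-κB proteins bind. It spans 3L:5770078-5770278, plus strand, dm6, from the RefSeq assembly, and is centred between the 2 replicate summits, which lie 50 bp apart. Capitals mark bases of a match to the broad kB string or to a looser one, which asks only for the G run and the C pair that flank any 5 bases; both were searched on both strands, and the matches overlap.
scny first intron: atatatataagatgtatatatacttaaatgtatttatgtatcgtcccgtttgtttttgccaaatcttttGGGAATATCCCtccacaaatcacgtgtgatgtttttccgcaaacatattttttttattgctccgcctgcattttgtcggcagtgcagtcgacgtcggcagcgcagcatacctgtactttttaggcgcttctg

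This intronic region of scny ranked 2021 in replicate 3 (3L:5769961-5770344, signal 36.4, −log10 q 1.84) and 2887 in replicate 2 (3L:5770005-5770400, signal 38.3, −log10 q 1.53). The match to the broad kB string covers the replicate 3 summit, 5770153. Such matches were uncommon near summits, occurring within 100 bp of 0.938% of IDR summits, of 1.03% of the first 2133 summits of replicate 3 and of 1.59% of all pooled relaxed summits. The match was picked from a search of 16 summit windows of the regulators for 7 strings. The 2 windows with a broad kB match were the overlapping ones of this scny region, and the 14 others had none. A match is a description of the sequence and does not show that Rel binds it. The pooled list had no summit within 200 bp, and its nearest (3L:5770272-5770667, signal 33.9, −log10 q 0.65) ranked 8731. At that pooled summit, regions ranked 8672 in replicate 2 and 6269 in replicate 3, so all 3 lists had a weak region there.

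A second region of scny appeared in replicate 2 alone. It ranked 583 (3L:5771070-5771465, signal 75.6, −log10 q 3.21), with a summit 48 bp downstream of the last start site, in a 5′ UTR exon of 4 transcripts and an intron of 3. Neither replicate 3 nor the pooled list had a summit within 200 bp of it. Of the 583 strongest regions of replicate 2, 12 (2.06%) had no pooled region within 200 bp. The nearest IDR summit to scny was 140984 bp away and 2965 bp from the start of Blimp-1, which encodes a zinc finger repressor of the ecdysone response. For comparison, 94.7% of protein-coding genes had a nearer IDR summit.

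**Figure D5:**
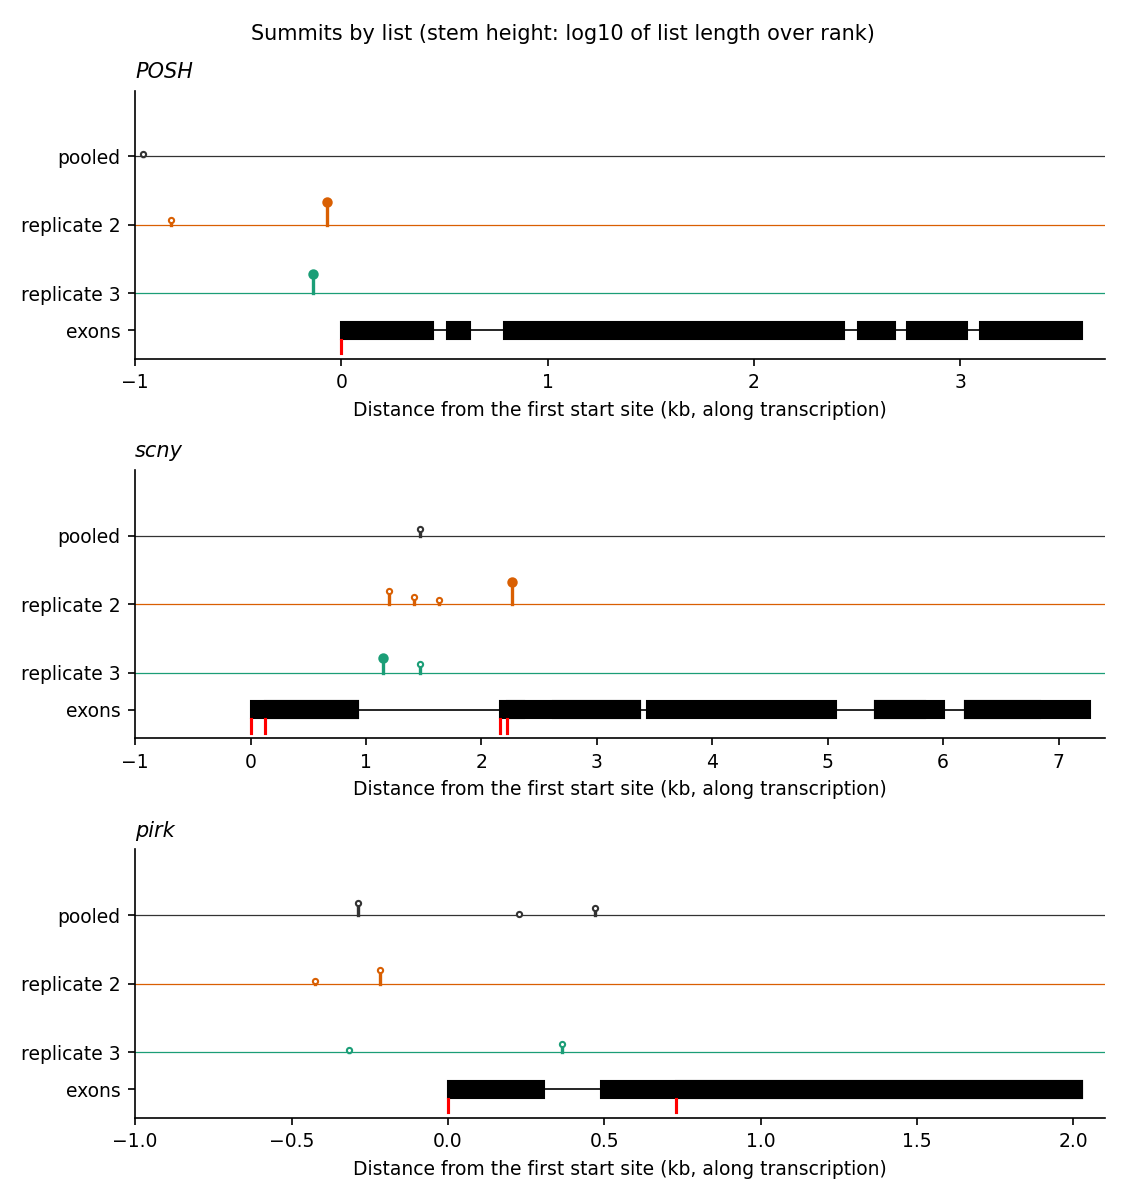
Summits at POSH, scny and pirk against distance from the first start site (kb), drawn as for dnr1: stem height is the log10 of list length over rank, filled points are within the first 2133 regions of that list, black boxes are exons of any transcript and red ticks are start sites. Filled points stand 69 and 139 bp upstream of POSH in replicates 2 and 3 and at separate places in scny, and none stands in the pooled rows.

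CYLD and trbd, the other deubiquitinases, carried no strong region. CYLD, which acts at the IKK complex and is the fly counterpart of a human tumour suppressor, is FBgn0032210 and lies at 2L:10295859-10299847 on the minus strand. It had 1 region, in replicate 2, at rank 17881 (signal 14.6) in a coding exon, and none in the pooled list or replicate 3. Its nearest IDR summit was 6942 bp upstream, at a peak ranked 336 (2L:10306591-10306986, signal 156) and lying 133 bp from the start of CG4968. That peak ranked 518 in replicate 2 and 209 in replicate 3, so both replicates held a strong region near CYLD and neither held one in it.

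trbd, whose product Trabid removes ubiquitin chains from Tak1, is FBgn0037734 and lies at 3R:9705996-9711037 on the minus strand, with its start 105 bp from that of dmt on the opposite strand. No list had a summit in trbd or its upstream 1000 bp, so the shared promoter of trbd and dmt held none either. A gene with no region was common: 47.2% of protein-coding genes had none in the pooled list, 41.9% in replicate 2 and 43.8% in replicate 3. The nearest IDR summit (3R:9702659-9703054, rank 1380, signal 89.0) lay 3139 bp beyond the 3′ end, inside Unc-115a, and ranked 1056 in replicate 2 and 3827 in replicate 3. Without replicate 2 the nearest of the strongest 2133 regions was 60579 bp away. In replicate 2 the nearest region of any rank was 475 bp beyond the 3′ end, at rank 2223, and 104 bp from the start of Unc-115a.

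pirk is known as a target of the pathway that feeds back on it, since its transcript rises on Imd activation. The gene (FBgn0034647) lies at 2R:21660967-21662995 on the minus strand and has 2 start sites. Its best pooled region (2R:21663086-21663481, signal 56.7) ranked 3525 with a −log10 q of 1.46, 289 bp upstream of the first start and within the non-coding gene lncRNA:CR44748. In replicate 2 a summit 71 bp from it, 218 bp upstream, ranked 2401 (signal 41.7), and in replicate 3 a summit 28 bp from it ranked 18784 (signal 11.8). The region thus ranked beyond the first 2133 in replicate 2, was in the background range in replicate 3, and lay below the IDR list in the pooled list. The best region of replicate 3 was elsewhere, in the intron 363 bp upstream of the second start, at rank 6528. The nearest IDR summit was 7078 bp upstream, 79 bp from the start of NC2alpha, at rank 1977. Among the strongest 2133 regions of replicate 2 alone, the nearest was 14150 bp away.

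casp, the fly counterpart of the human FAF1 gene, had only low-ranked regions. The gene (FBgn0034068) lies at 2R:16024628-16028161 on the minus strand, and its start is 442 bp from that of CG8401 on the opposite strand. Replicate 2 had summits at ranks 22607 and 29558, which lay 173 and 384 bp upstream, and replicate 3 had 1 at rank 17700, in an intron 55 bp from the nearest start. The pooled list had none. The nearest IDR summit was 32104 bp away at a strong peak (2R:15992430-15992609, rank 74, signal 245) lying 116 bp from the start of CG8320. Over all regulators the median distance to the nearest IDR summit was 7078 bp, against 19556 bp over all protein-coding genes, and the values of single regulators ran from 0 bp (dnr1) to 140984 bp (scny). Without replicate 3 the medians were 1440 bp for the regulators and 19449 bp for all genes, and for the stronger 1066 IDR peaks they were 21231 and 39909 bp. Distances were counted from the gene body, and median gene length was 3989 bp for the regulators and 2166 bp for all protein-coding genes. The part of gene length in these distances was not tested.

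No kB string was found at the IDR summits of dnr1. Searched within 100 bp of each of its 3 IDR summits, neither the broad string nor the looser one occurred, which says only that these letters are not in those windows; over all IDR summits the shares were 0.938% and 8.06%. Also searched were GAGAGAG (the site of the GAGA factor, near 11.1% of IDR summits), the repeat CACACACA (9.38%) and the STAT-type string TTCNNNGAA (4.41%), and none was within 100 bp of the dnr1 summits. Within 200 bp, GAGAGAG occurred once, at the summit ranked 1139, and near 22.4% of all IDR summits. The DRE core element TATCGATA (0.938%) was not there either. AGATAA, a form of the site of GATA factors, occurred once, at the summit ranked 1139, and was found near 12.2% of all IDR summits. The POSH windows of both replicates held none of the 7 strings. Of 13 promoters of the regulators (250 bp before to 50 bp after each start site), 0 held the broad kB string, which 2.18% of all 19607 promoters held. The looser string occurred in 1 of the 13, that of the second pirk start, against 12.7% of all promoters, and the DRE core element in 1, that of the first scny start, against 7.98%.

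Other genes of the pathway and of the same protein classes had IDR summits in the gene or 1000 bp upstream at shares above the genome-wide 10.6%, and these genes were also longer. Within 500 bp of a start site, where the genome-wide share was 6.88%, the counts were 1 of 16 in the Imd signalling core, 2 of 17 other genes reported to restrain Imd output, 3 of 25 other deubiquitinases and 1 of 16 other ligases. Of 16 genes of the Imd signalling core 4 had one, with a median gene length of 3402 bp against 2166 bp for all genes. They were imd (rank 39), Tab2 (611), the ubiquitin-conjugating enzyme gene eff (946) and the receptor gene PGRP-LE (1436, where the nearest start is that of sd). Of 17 other genes reported to restrain Imd output, 5 (29.4%) had one, with the best ranks at SkpA (96), an SCF ligase subunit, Dsp1 (530), zfh1 (790) and nub (800), and a median length of 7704 bp. The best peaks of SkpA and Dsp1 lay nearer to the starts of Hmt4-20 and CG9921.

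Among 25 other deubiquitinase genes, 6 (24.0%) had an IDR summit, and 0 of the 3 among the regulators did. Without replicate 2 the counts were 3 of 25 and 1 of 3 (scny), against 10.6% of all protein-coding genes. Without replicate 3 they were 5 of 25 and 1 of 3 (scny), against 10.8%. Regions shared by both replicates gave 2 of 25 and 0 of 3, against 6.94%. The stronger 1066 IDR peaks gave 1 of 25, against 6.08%. The best ranks were those of ec (942), Usp30 (1173), Uch-L5 (1422) and not (1669), and the best peaks of Usp30 and Uch-L5 lay nearer to the starts of CG16721 and Jarid2. Among 16 other ubiquitin ligase genes 3 (18.8%) had one, neur (67), Diap1 (121) and Pli (405), with a median length of 11332 bp. Without replicate 2 the count was 5 of 16 (10.6% of all genes), and with pooled regions at a q under 0.05 it was also 5 (17.5%). These shares were not tested, and nothing particular to the regulators follows from them.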

How the data were processed

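Per the labels, chromatin from whole larvae was sheared by sonication to 200 to 800 bp and precipitated with anti-GFP. Per the notes deposited with the lists, the authors called regions relative to a control alignment, which was not analysed here; the aligner and peak caller were not given in the sources used here. Each deposited signal value is a score of the peak caller, used only to rank regions within a list. The deposited −log10 q describes each region. The dm3 lists were not used.

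Gene positions came from Ensembl release 115 (dm6 coordinates) and sequence from the matching RefSeq assembly. Coordinates count from 1. A summit belonged to a gene when it fell within the gene body or the 1000 bp before its start, and summits of 2 lists were paired within 200 bp. Motif shares are exact matches on both strands. The assignment, pairing and motif steps were tested on simulated data. Of the list symbols, 1 (calypso) matched no gene and was left out.

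The regulators, lists and rules were chosen with earlier results of these data known. Named genes were the regulators, the genes nearest to their summits or nearest peaks, up to 4 genes with the best ranks per other list, and the 3 genes most like dnr1 in rank. GstE13 and CG2698 were named after their values were seen. Replicates are 2 samples of 1 group and no test was made, so no p-value is given. Replicate numbers and their description as biological replicates come from the labels. Alternatives left out each replicate, or changed the threshold, gene assignment, overlap or motif window. The software was Python 3.11.15 with scipy 1.17.1, numpy 2.4.6 and pandas 2.3.3; figures were drawn in matplotlib 3.10.9.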

Additional observations from a re-analysis of the deposited data

How the results depend on the processing

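Leaving out a replicate here means taking the strongest 2133 regions of the other. The count of regulators with a summit was 1 in the IDR list, 3 without replicate 2 and 3 without replicate 3 (dnr1, POSH and scny each time, with background shares of 10.6% and 10.8%), 2 with pooled regions at a q under 0.05 (dnr1 and pirk, background 17.5%), and 2 with regions shared by both replicates (background 6.94%), an alternative added after the data were seen. The shared regions were at dnr1 and POSH, since the scny summits of the 2 replicates were at different places. The 6 other alternatives gave 1, with backgrounds from 6.08% to 16%. Summits at regulators numbered 3 in the IDR list, 5 without either replicate, 5 at a q under 0.05 and 1 within 500 bp of a start site. In the other lists, 18 of 73 genes had a summit (10.6% of all genes), and 7 did within 500 bp of a start site (6.88%). The median of the regulators' best ranks, counting a gene with no region as ranked 30001, was 21458 in the pooled list, from 2401 to 6528 with 1 replicate left out, and 8731 with 5000 bp upstream. The median distance to the nearest summit was 7078 bp, from 1440 to 6918 bp with 1 replicate left out, and 21231 bp for the stronger 1066 IDR peaks. The broad kB string occurred in 0 of the IDR summit windows and promoters of the regulators, and in 1 with promoters from 500 bp before the start (POSH, against 4.29% of all promoters). The cause of these changes was not tested. No paired analysis was possible because the samples form 1 group. Read depth is unknown, and a rank near the end of a relaxed list cannot be told from background.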
